A study of Rattus norvegicus with 9 samples.

Results

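The loci described here are stretches of the rat genome transcribed in brain from the strand opposite an annotated gene. The transcript annotation deposited with the data holds 114601 assembled loci, and in 6012 of them every transcript was classed as exonic overlap with a reference gene on the opposite strand. Of these, 27 lay between 38 and 40 Mb of chromosome 12, around the Lrap gene that the study deleted, and were set aside. A further 4924 had a mean level under 0.5 CPM, the usual depth-scaled count (a locus's count relative to its library's total), which left 1061 antisense loci. The loci were chosen by their measured mean level over all 9 libraries, so that level is described without a test. The loci nearest to that minimum were those opposite Ttc23, LOC500124 and AABR07042599.1 inside it (0.50009, 0.502 and 0.502 CPM) and those opposite Vwa5b1, Kb15 and Zfpm1 outside it (0.49995, 0.49993 and 0.49986 CPM).

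RNA came from the whole brain of 9 untreated, alcohol-naive male Wistar rats. There were 3 wild-type rats (Wistar, from Charles River), 3 rats heterozygous (Lrap-/+) and 3 rats homozygous (Lrap-/-) for the Crl:WI-Lrapem1Geh allele, in which CRISPR/Cas9 had removed 618 bp of the long non-coding RNA gene Lrap. The 3 genotypes are written WT, Het and Hom below. The sources used here give no ages and do not say whether the wild-type rats were littermates, and both mutant groups carry the same engineered allele. Each library is 1 rat, made from total RNA depleted of ribosomal RNA with a kit that keeps the strand.

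A natural antisense transcript is an RNA made from the strand opposite a gene. It can start near the gene's promoter and run away from it, lie inside the gene, or run into the gene's end from a neighbour. Some well-studied examples act on the gene they overlap, as the transcript that starts inside Kcnq1 does in imprinting, while for most no role is known. In whole brain, levels sum over every cell type, so fewer cells of a type and less RNA per cell cannot be told apart.

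Library totals ran from 27489383 to 46975919 estimated counts, so a locus at the level minimum rests on 13.7 to 23.5 counts in a library. The Lrap isoform that spans the deleted 618 bp was at 2.03 to 2.79 CPM in WT, 0.900 to 1.16 in Het and 0.202 to 0.382 in Hom rats, and the 3 groups did not overlap. The mitochondrial genome gave 21.3, 40.4 and 19.6% of the counts in WT, 23.4, 28.1 and 15.1% in Het and 14.8, 16.9 and 16.4% in Hom rats, so that WT and Hom did not overlap and WT rat 2 was the highest of the 9. Libraries also differed in region markers: the 9 cerebellar markers (9 of 9 measured) summed to 64.5 to 676 CPM in WT, 212 to 345 in Het and 60.9 to 535 in Hom rats. The antisense loci together took 0.470 ± 0.0366% of the counts in WT, 0.474 ± 0.0859% in Het and 0.461 ± 0.0192% in Hom rats (SD, n = 3 each). The means lay closer together than 1 SD of the Het rats, and with 3 rats against 3 no exact permutation test of this share could give a p under 0.1.

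Sequences are shown first where the opposite strand carries a named product. Of the antisense loci, 5 lay opposite an annotated microRNA gene. Of the 4 whose microRNA matched RefSeq's table by name, 2 had a microRNA that is the exact reverse complement of a mature microRNA elsewhere in the table. A microRNA recognises its targets mainly through the seed, bases 2 to 8, which is in capitals. The first of each pair is the microRNA annotated opposite the locus. The second is its exact complement, whose letters lie on the strand of the locus:
rno-miR-3596a: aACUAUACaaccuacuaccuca
rno-let-7a-5p: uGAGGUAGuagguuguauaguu
rno-miR-3588: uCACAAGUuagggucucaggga
rno-miR-125b-5p: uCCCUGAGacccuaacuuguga
The seeds differ within each pair. let-7a and miR-125b are abundant microRNAs of the brain.

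The locus opposite Mir3596a (MSTRG.100474, rn6 chromosome 8, 45749723 to 45767976, plus strand, 1 exon) was the highest of these 5. Its level was 15.2, 18.6 and 9.80 CPM in WT rats, 14, 10.1 and 8.82 in Het rats and 9.38, 11.4 and 7.44 in Hom rats. Here and below, levels by rat are CPM after trimmed mean of M values (TMM) scaling, which adjusts library totals so that most loci keep their level. The 3 groups overlapped, and the log2 difference of homozygous from wild-type rats was -0.63 ± 0.26 (SE; edgeR quasi-likelihood test, adjusted p = 0.544). The locus opposite Mir3588 (MSTRG.19829, chromosome 11, 16089629 to 16103107, plus strand, 2 exons) was at 7.06, 13.2 and 7.19 CPM in WT rats, 8.02, 5.74 and 7.04 in Het rats and 6.63, 5.90 and 6.29 in Hom rats. Wild-type rat 2 was the highest of the 9 there, and the log2 difference was -0.54 ± 0.25 (SE; edgeR, adjusted p = 0.544). The other 3, opposite Mir1956, Mir146b and Mir378b, had wild-type means of 1.63 ± 0.363, 0.751 ± 0.410 and 3.89 ± 1.46 CPM and homozygous means of 0.946 ± 0.0937, 0.495 ± 0.157 and 2.85 ± 0.990 CPM (SD, n = 3).

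A second set of sequences belongs to loci that start just inside the sense gene and run out across its promoter. Ednrb and Glb1 are shown because their antisense loci had the highest correlations with the sense gene among sense genes of at least 1 TPM, and Pink1 because its antisense locus starts as close to the sense start without following it. Each is the RefSeq promoter window around the gene's start, on the strand of the sense gene, with CG pairs in capitals. Ednrb lies on the minus strand at chr15:87086716-87087015, Glb1 on the plus strand at chr8:122963468-122963767 and Pink1 on the minus strand at chr5:155825901-155826200, all in GRCr8, a newer build than the rn6 used for every other coordinate here:
Ednrb: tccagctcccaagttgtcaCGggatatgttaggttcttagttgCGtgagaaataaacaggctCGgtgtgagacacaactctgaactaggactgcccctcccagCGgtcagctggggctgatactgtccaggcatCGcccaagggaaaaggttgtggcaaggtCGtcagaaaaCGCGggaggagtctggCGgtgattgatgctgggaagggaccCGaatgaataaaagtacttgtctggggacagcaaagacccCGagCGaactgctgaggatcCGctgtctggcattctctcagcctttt
Glb1: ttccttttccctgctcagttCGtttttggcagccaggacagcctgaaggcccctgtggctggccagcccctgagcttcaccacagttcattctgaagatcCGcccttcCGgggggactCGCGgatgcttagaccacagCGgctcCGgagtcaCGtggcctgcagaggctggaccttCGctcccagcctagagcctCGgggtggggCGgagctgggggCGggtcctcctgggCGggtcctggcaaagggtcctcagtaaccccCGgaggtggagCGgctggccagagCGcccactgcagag
Pink1: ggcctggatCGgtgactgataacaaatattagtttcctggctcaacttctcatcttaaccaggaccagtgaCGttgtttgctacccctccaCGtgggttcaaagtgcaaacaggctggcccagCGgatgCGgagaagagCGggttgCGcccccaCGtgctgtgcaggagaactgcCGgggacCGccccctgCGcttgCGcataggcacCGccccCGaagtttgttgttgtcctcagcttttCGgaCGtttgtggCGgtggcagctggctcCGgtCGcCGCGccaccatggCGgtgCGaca
The windows hold 13, 16 and 23 CG pairs, against a median of 7 over the 27456 promoters of the table. The motif GGGCGG, searched on both strands, was found in the Glb1 and Pink1 windows and in 34.9% of all promoters. The antisense loci start 194 bp (Ednrb), 83 bp (Glb1) and 65 bp (Pink1) downstream of the assembled sense start, so that only 195, 84 and 66 of their exonic bases overlap sense exons.

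Most antisense loci were long, unspliced and low. A single exon made up 711 of the 1061 loci (67.0%), 212 had 2 exons and 29 had 5 or more. Among the 4924 loci under the level minimum 87.1% were of 1 exon. The exonic length had a median of 4756 bases (quartiles 2949 and 7287), against 566 in the loci under the minimum. The median level was 1.13 CPM (quartiles 0.717 and 2.31), 596 loci were at 1 CPM or more and 50 at 10 CPM or more. In TPM, the deposited unit that also divides by transcript length, the median was 0.14, and 338 loci (31.9%) were under 0.1 TPM, where the deposited steps of 0.01 are coarse. They lay on 21 chromosomes, 155 of them on chromosome 1, with 551 on the plus and 510 on the minus strand.

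The sense gene was itself assembled for 855 of the 1061 loci, as 802 distinct sense loci, and 99 antisense loci shared theirs with another. Relative to the sense gene, 302 loci lay inside it, 237 ran over its end, 193 over its start, 81 covered it whole and 42 lay outside the assembled model. The sense gene of the remaining 206 was not assembled in these brains. Of the 15547 gene symbols tested, 710 (4.57%) had such a locus opposite them. Among sense genes, 18 loci lay opposite 15 ion channel genes, of which 13 were themselves tested (8.28% of the 157 tested genes of that list). There were 26 opposite 24 solute carriers, 19 of them tested (6.55% of 290), 15 opposite zinc finger and homeobox factors (3.39%) and 2 opposite transmitter receptors (1.74%: Grik5, a kainate receptor subunit, and P2ry14, a nucleotide receptor, both named outside the naming rule). Of 13 neuron markers 2 had a locus opposite them, Gad1 among them, as had 1 of 6 blood markers (Alas2, of heme synthesis). By comparison, 0 of the 6 to 9 tested genes in each list of astrocyte, oligodendrocyte, microglia, endothelial, choroid plexus and cerebellar markers had one. Lists this short say little beside the 4.57% of all symbols.

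The highest loci were a few spliced or very short units. By the rule used here for naming, which takes loci with a sense gene symbol, the first by TPM lay opposite Cnbd2 and Aqp12a. The locus opposite Cnbd2 (MSTRG.70682, chromosome 3, 152434721 to 152465593, minus strand, 2 exons), a gene with a cyclic nucleotide-binding domain, was at 488, 398 and 483 CPM in WT rats, 414, 455 and 418 in Het rats and 440, 390 and 390 in Hom rats. RefSeq places Scand1 as its opposite-strand neighbour, a match by gene name and not by coordinates. The locus opposite Aqp12a (MSTRG.108275, chromosome 9, 100153981 to 100171723, minus strand), an aquaporin gene, was at 186, 130 and 225 CPM in WT rats, 198, 195 and 193 in Het rats and 206, 187 and 201 in Hom rats. In both, the 3 groups overlapped. The rest of the 8 highest lay opposite Scgb1b30 (50.02 ± 19.8 TPM, SD, n = 9), Wasf3, an actin regulator (22.2 ± 10.9), Mab21l1 (8.49 ± 2.95), Peg3, an imprinted zinc finger gene (8.28 ± 3.14), Chn1, a Rac-directed GTPase-activating protein (6.60 ± 5.54), and Map2, a microtubule protein of dendrites (6.33 ± 3.84).

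Higher still were loci opposite clone identifiers, named here after their values were seen. MSTRG.87478, opposite AABR07063425.1 on chromosome 6 (30640745 to 30641340), has 377 exonic bases and a mean of 3740 TPM. It was at 464, 79.6 and 147 CPM in WT rats, 198, 111 and 1104 in Het rats and 893, 532 and 690 in Hom rats. MSTRG.87491, opposite AABR07063462.1 on the same chromosome (31048821 to 31049347), was at 519, 741 and 285, then 229, 212 and 2317, then 1306, 885 and 1057 CPM in the same order. In both, heterozygous rat 3 was the highest of the 9 and heterozygous rats 1 and 2 were among the lowest, so the spread within the heterozygous group was wider than the difference between any 2 groups.

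Levels of antisense and sense could be set side by side in 747 pairs, those in which both passed the filter on low counts. The antisense level was a median of 6.96% of the sense level by TPM (quartiles 2.58 and 22.7%), and 6.79% by counts per effective length. In 57 of the 747 pairs (7.63%) the antisense locus was the higher of the pair, and in another 57 it was under 1% of the sense gene. In single libraries the median ratio was 8, 9.12 and 6.15% in WT rats 1 to 3, 7.92, 6.28 and 5.71% in Het and 6.11, 6.25 and 5.38% in Hom rats, so the groups overlapped. The 30 pairs in which the locus covered the sense gene had a median of 58.2%, against 5.25% over the sense end (217 pairs), 6.86% over the start (178) and 7.04% inside (297). Spliced loci had a median of 12.1% (227 pairs) and single-exon loci 5.81% (520 pairs).

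The sources used here do not say whether the counting step used the strand. Without strand, reads in overlapping exons could be counted to either partner. Loci with no exonic overlap with their sense gene had a median ratio of 22.9% (63 pairs), those with up to 10% of their exonic bases overlapped 6.5% (239), those with 10 to 50% 6.85% (332) and those over 50% 6.55% (113). These groups differed in other ways too. The median sense level was 0.989 TPM without overlap, against 2.27, 1.93 and 3.11 TPM in the same order. Single-exon loci made up 31.6% of the loci without overlap, against 67.0, 76.1 and 80.3%. The part of these differences in the ratios was not tested. The lowest ratios were opposite the highest sense genes, both clone identifiers named after their values were seen. AABR07064724.4 was at 119415 TPM with 3.18 TPM opposite it (0.00266%), and AABR07070810.1 at 46975 TPM with 7.02 TPM opposite it (0.0149%).

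**Figure D1:**
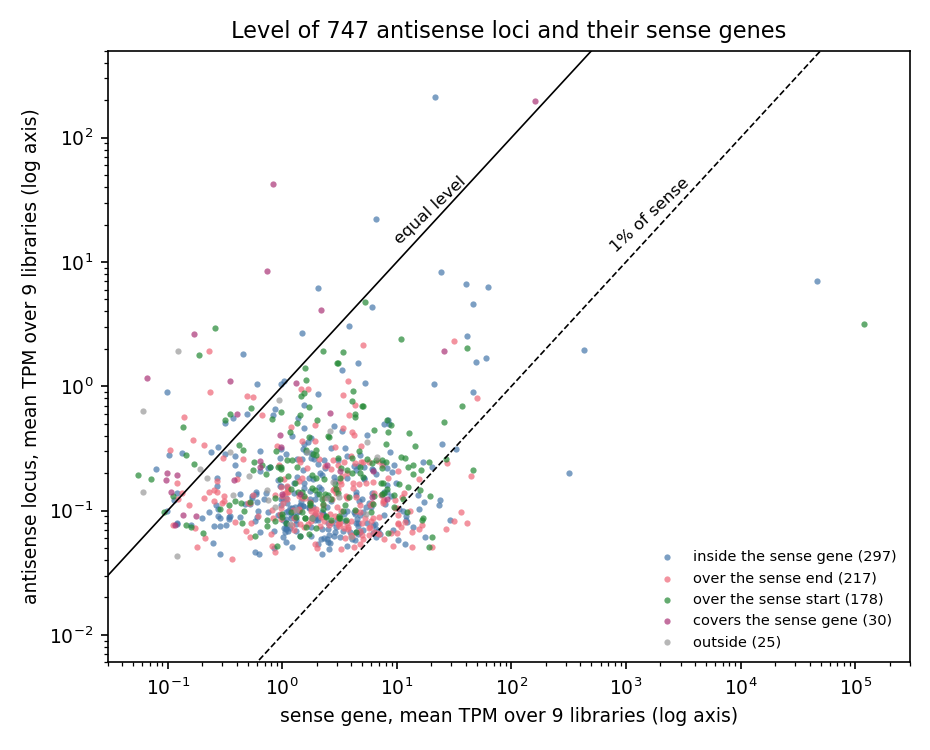
Mean TPM of each of 747 antisense loci (vertical) against that of its sense gene (horizontal), both on log axes, coloured by where the locus lies on the sense gene, with counts in the legend. Points above the solid line are the 57 pairs with more antisense than sense, and the points at the far right include the pairs with the highest sense genes, AABR07064724.4 at 119415 TPM and AABR07070810.1 at 46975 TPM.

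In several pairs with more antisense than sense, the antisense locus was a multi-exon transcription unit. The clearest was opposite Mab21l1, a developmental gene of eye and brain. The locus (MSTRG.56650, chromosome 2, 145011639 to 145403001, minus strand) had up to 36 exons and was at 104, 104 and 143 CPM in WT rats, 112, 106 and 104 in Het rats and 117, 102 and 117 in Hom rats. Mab21l1 itself was at 0.997, 0.755 and 7.24 CPM in WT rats, 2.39, 2.95 and 3.89 in Het rats and 5.62, 1.03 and 3.8 in Hom rats. By TPM the antisense locus stood at 1152% of the sense gene. RefSeq's opposite-strand neighbour of Mab21l1 is the protein-coding gene Nbea, a large trafficking protein of the synapse. No tested locus carried that symbol on its own strand. The WT rats alone covered the whole range of Mab21l1, and the opposite unit lay between 102 and 143 CPM. Wild-type rat 3 was the highest of the 9 for both partners. Over the 9 rats Pearson r was 0.75 and Spearman rho 0.63. Neither passed the adjustment (exact permutation p = 0.00832 and 0.0760, adjusted p = 0.271 and 0.645).

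Opposite Sult2b1, a sterol sulfotransferase, the locus (MSTRG.4979, chromosome 1, 101773035 to 101783538, plus strand, up to 12 exons) was at 15.1, 7.08 and 14 CPM in WT rats, 15.3, 14.3 and 14.1 in Het rats and 25.9, 15.4 and 14.9 in Hom rats. This was 1131% of Sult2b1 by TPM, and RefSeq lists the protein-coding genes Fam83e and Lmtk3 as opposite-strand neighbours. The remaining pairs of highest ratio by the naming rule were Scube3 (1769%), Adgb (1553%), Rn60_17_0453.2 (1036%) and Klra2 (949%). In each of these the sense gene had a mean of under 0.2 TPM, so the ratio rests on a low denominator. The loci opposite Adgb, Rn60_17_0453.2 and Klra2 had 0 bases of overlap with exons of the assembled sense gene, as had that opposite Mab21l1. Those opposite Adgb and Rn60_17_0453.2 lay outside the assembled sense model. Outside that rule, the locus opposite AABR07065406.1 had the highest ratio of all 747 pairs, 5123%, at 42.8 TPM against 0.834 TPM.

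Antisense transcripts with a known counterpart in other mammals were looked up from a list of 40 sense genes, of which 36 were tested here. Members lay opposite 4 of them, 11.1% of the tested list. Opposite Kcnq1, a voltage-gated potassium channel gene that hosts an imprinted antisense transcript, there were 2 loci. The larger (MSTRG.9895, chromosome 1, 216358368 to 216500255, minus strand, 4 exons) starts 206749 bp into the gene. It was at 17.2, 21.5 and 10.6 CPM in WT rats, 15.4, 10.7 and 11 in Het rats and 13.6, 14 and 12.8 in Hom rats. Kcnq1 itself was between 0.131 and 0.403 CPM in all 9, and the ratio by TPM was 903%. The smaller locus, MSTRG.9896, had 1.65 CPM on average and stood at 100% of Kcnq1 by TPM.

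Opposite Emx2, a homeobox gene of forebrain patterning, the locus (MSTRG.12729, chromosome 1, 280627268 to 280633987, minus strand, 2 exons) starts 49 bp inside the gene and was at 22.5% of it. Its values were 1.02, 0.677 and 0.426 CPM in WT rats, 0.681, 0.808 and 0.709 in Het rats and 0.442, 0.936 and 0.604 in Hom rats. Opposite Pink1, a kinase of mitochondrial quality control, the locus (MSTRG.85047, chromosome 5, 156689350 to 156691287, plus strand) was at 0.930% of the sense gene. Opposite Gad1, an enzyme that makes the transmitter GABA, the locus (MSTRG.66233, chromosome 3, 56851142 to 56861569, minus strand) was at 0.301%. These partners thus ran from a small fraction of the sense gene at Gad1 and Pink1 to an excess at Kcnq1.

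The other long spliced unit lay opposite Nr2f1, an orphan nuclear receptor of cortical patterning. The locus (MSTRG.51639, chromosome 2, 5578812 to 6110347, plus strand, up to 12 exons) starts 1082 bp inside the gene and runs away from it. It was at 45.2, 57.9 and 36.8 CPM in WT rats, 42.4, 43.7 and 45.7 in Het rats and 49.9, 51.3 and 48.7 in Hom rats, 88.9% of Nr2f1 by TPM. The partners did not track each other over the 9 rats (Pearson r = -0.23, Spearman rho = -0.18, exact permutation p = 0.55 and 0.644).

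Co-variation was measured as Pearson r between antisense and sense, log2(CPM + 0.5) by rat, over the 9 libraries. The median over the 747 pairs was -0.03 (quartiles -0.34 and 0.31), and r was above 0 in 352 pairs (47.1%). The same loci set against the sense gene of every other pair (521406 combinations) gave a median of -0.11, with 41.9% above 0. These r values share the 9 libraries and their scaling, so they are a description. They depend on the scaling: by column totals the medians were 0.383 for own and 0.306 for other sense genes, and by TPM 0.651 and 0.614. The own partner had the higher median on each of these 3 scales. Centred within genotype the median was -0.01, and without the 2 libraries farthest from the median sense level it was -0.06.

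**Figure D2:**
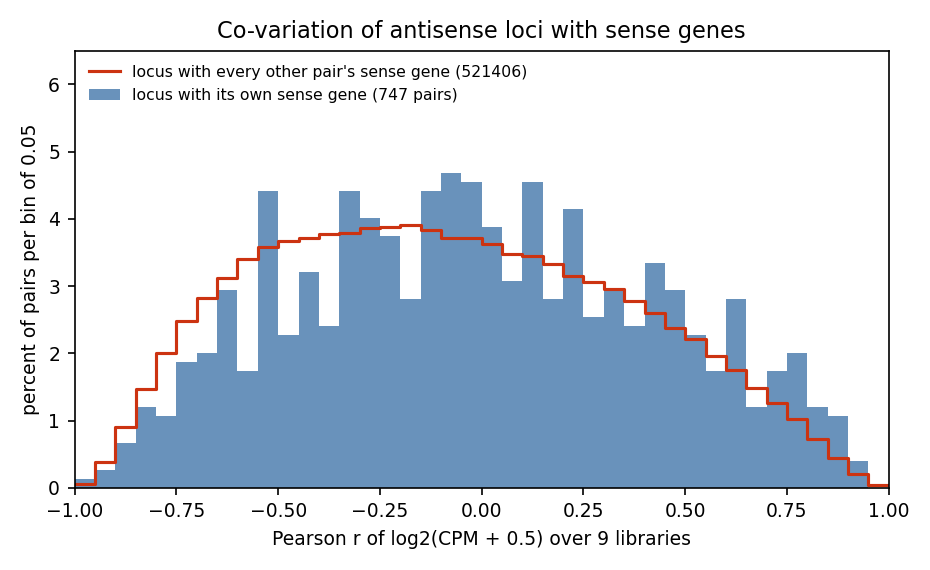
Percent of pairs (vertical) by Pearson r over 9 libraries in bins of 0.05 (horizontal), for 747 antisense loci with their own sense gene (bars) and with the sense genes of all other pairs (line). The bars follow the line closely, with medians of -0.03 and -0.11.

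By position, pairs in which the locus ran over the sense end had a median r of -0.14 (quartiles -0.47 and 0.16), those over the sense start 0.02 (-0.26 and 0.41), those inside 0.00 (-0.33 and 0.37) and those covering the gene 0.13 (-0.13 and 0.39). An r of 0.8 or more was reached by 20 pairs and one of -0.8 or less by 17. In the bins starting at r = -1.0, -0.95, -0.9 and -0.85 lay 1, 2, 5 and 9 of the 747 pairs. Of the 521406 combinations with other sense genes, 268, 1976, 4711 and 7684 lay there. In the bins starting at 0.8, 0.85, 0.9 and 0.95 lay 9, 8, 3 and 0 pairs, against 3784, 2345, 1108 and 188 combinations. The difference between own and other sense genes at either end was not tested. By share of exonic bases overlapped, the medians were 0.00 without overlap, -0.07 at up to 10%, -0.03 at 10 to 50% and 0.06 above 50%.

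Over all 1400 antisense and sense pairs tested, 1 passed an adjusted p of 0.05 (exact permutation over the 362880 orders of the libraries, Benjamini-Hochberg), a background of 0.0714%. It was among the 747, where 105 pairs (14.1%, background 10.7%) had an unadjusted p under 0.05. That pair was Higd1a, a hypoxia-induced protein of the inner mitochondrial membrane. Its antisense locus (MSTRG.104249, chromosome 8, 130477518 to 130487332, plus strand, 1 exon) runs over the sense end with 1358 bases of exonic overlap. It was at 1.56, 1.52 and 0.903 CPM in WT rats, 1.56, 1.21 and 0.894 in Het rats and 1.06, 1.31 and 0.761 in Hom rats. Higd1a was at 19.3, 21 and 26.8 CPM in WT rats, 20.5, 24.1 and 27.6 in Het rats and 24.4, 23.1 and 29.3 in Hom rats.

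Each rat with more antisense RNA had less Higd1a, without exception (r = -0.98, exact permutation p = 1.38e-05, adjusted p = 0.0193; rho = -1, p = 5.51e-06, adjusted p = 0.00772, n = 9). The relation was as strong within genotypes (r = -0.98) and without the 2 farthest libraries (r = -0.99). The antisense locus was also negatively related to many other sense genes. Over 698 of them the median r was -0.57, and for 119 r was -0.8 or less. With Higd1a r was lower than with any of the 698. The pair was picked for its r, so that rank is a description and no separate test. The cerebellar gene Gabra6, was at 2.30, 4.32 and 103 CPM in WT, 15.7, 23.7 and 35 in Het and 66.4, 0.585 and 56.8 in Hom rats. The part of such differences between libraries in this relation was not tested. Nor was that of the exonic overlap given above, where reads could be counted to either partner if the counting ignored strand.

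The next lowest pairs did not pass the adjustment. The locus opposite Rassf8, a Ras-association domain gene (MSTRG.78642, chromosome 4, 180120921 to 180138743, minus strand), was at 3.25, 4.50 and 1.83 CPM in WT rats, 3.34, 2.19 and 2.51 in Het rats and 2.30, 3.02 and 1.94 in Hom rats. Rassf8 was at 18.6, 11 and 29.1, then 19.3, 26 and 25.8, then 28.6, 22 and 27.5 CPM (r = -0.94, rho = -0.93, exact permutation p = 0.00011 and 0.00075, adjusted p = 0.0772 and 0.175; r = -0.93 without the 2 farthest libraries). The mirror image was widest within wild-type rats, where rat 2 had the most antisense and the least sense RNA. The locus opposite C2cd2 (MSTRG.20549) gave r = -0.92, that opposite Tbc1d9, of a family of Rab GTPase regulators, -0.86, and that opposite Mtrr, methionine synthase reductase, -0.85 (adjusted p from exact permutation 0.126, 0.241 and 0.238).

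Among pairs of positive r with a sense gene of at least 1 TPM, Ednrb, the type B endothelin receptor, was first. Its antisense locus (MSTRG.36543, chromosome 15, 88036160 to 88042255, plus strand, 2 exons) was at 0.691, 0.651 and 2.23 CPM in WT rats, 1.03, 1.11 and 1.84 in Het rats and 1.59, 0.842 and 1.59 in Hom rats. Ednrb was at 50.4, 38.3 and 135, then 67.7, 90.6 and 91.8, then 115, 52.2 and 102 CPM. Both partners were low in wild-type rats 1 and 2 and homozygous rat 2 and highest in wild-type rat 3 (r = 0.94, rho = 0.95, exact permutation p = 0.000361 and 0.000353, adjusted p = 0.126 and 0.165; r = 0.89 without the 2 farthest libraries). Gabra6 had the same 3 rats at the bottom, at 2.30, 4.32 and 0.585 CPM, and wild-type rat 3 at the top, and its part in this relation was not tested.

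Glb1, lysosomal beta-galactosidase, came next. Its antisense locus (MSTRG.103787, chromosome 8, 122438668 to 122439411, minus strand, 744 bases) was at 0.230, 0.234 and 0.852 CPM in WT rats, 0.505, 0.990 and 0.735 in Het rats and 0.575, 0.491 and 0.856 in Hom rats. Glb1 was at 7.57, 7.37 and 12, then 9.45, 12.2 and 11.7, then 9.42, 11.6 and 13.6 CPM (r = 0.91, rho = 0.90, exact permutation p = 0.00139 and 0.00203, adjusted p = 0.206 and 0.218; r = 0.70 without the 2 farthest libraries). Wild-type rats 1 and 2 were lowest for both partners. Below 1 TPM, and so outside the naming rule, the pair of Spi1, a myeloid transcription factor (0.561 TPM), had r = 0.90 (adjusted p = 0.202 by exact permutation). Tnk2, a non-receptor tyrosine kinase, had r = 0.90, which fell to 0.26 without the 2 farthest libraries, so that it rests on them. Lrrc24 (r = 0.89) also missed the adjusted threshold (adjusted p = 0.206 by exact permutation). By contrast, the Pink1 locus shown above had r = -0.37 with Pink1 and the Emx2 locus 0.49 with Emx2 (adjusted p = 0.785 and 0.66 by exact permutation).

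**Figure D3:**
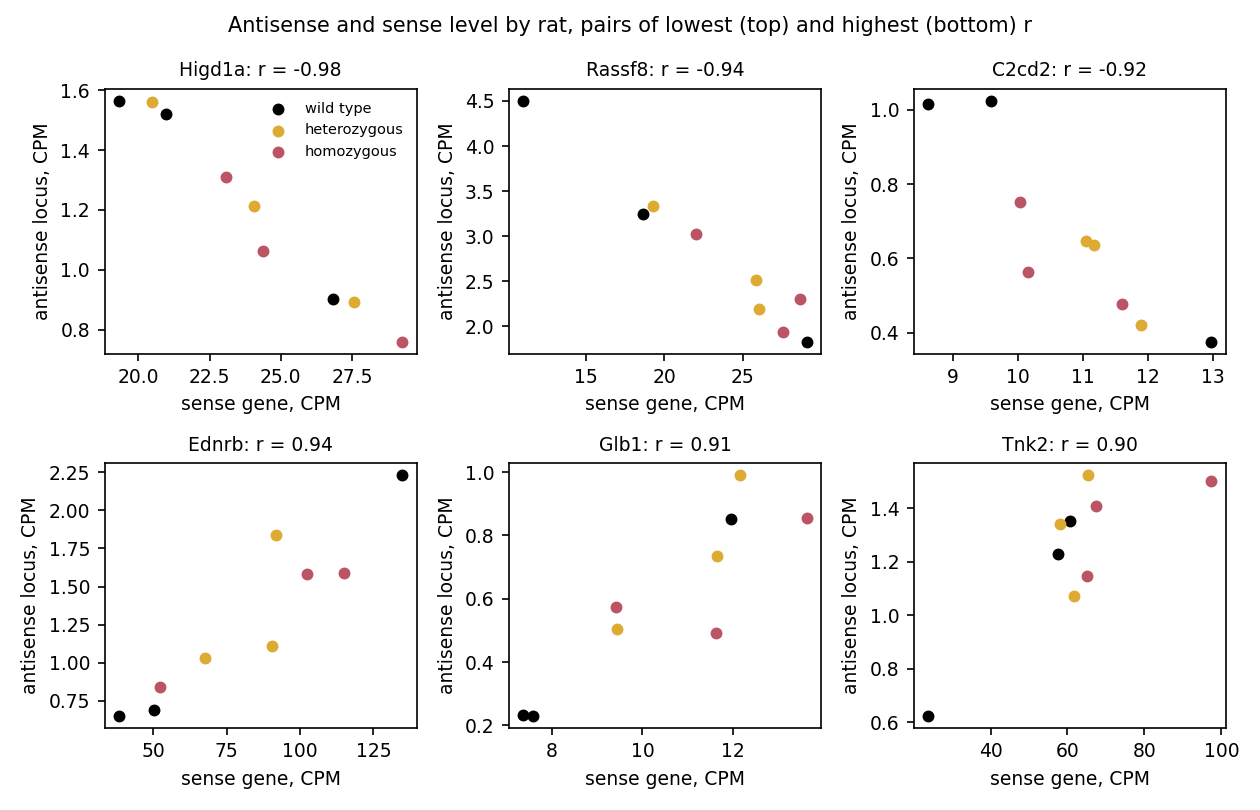
CPM of the antisense locus (vertical) against CPM of the sense gene (horizontal) in each of 9 rats, coloured by genotype, for the 3 pairs of lowest r (top) and the 3 of highest r (bottom) among sense genes of at least 1 TPM. The genotypes are mixed along each trend, and at Tnk2 the trend rests on the lowest and the highest rat.

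The genotype comparison asked whether loss of Lrap shifts antisense transcription. No antisense locus passed an adjusted p of 0.05 (edgeR quasi-likelihood test over 39057 loci, Benjamini-Hochberg) in homozygous against wild-type rats (background 0.0%), heterozygous against wild-type rats (0.00768%), homozygous against heterozygous rats (0.00256%) or in the slope per deleted allele (0.0%). The smallest adjusted p among the 1061 was 0.544, 0.981, 1.00 and 0.444 in that order. At an unadjusted p under 0.05, homozygous against wild type gave 64 loci (6.03%, against 9.13% of all loci tested). Of these, 15 were higher (background 4.88%) and 49 lower (background 4.25%). The slope gave 77 (7.26%, background 10.9%), 16 of them upward (background 5.76%) and 61 downward (background 5.15%). Heterozygous against wild type gave 29 (2.73%, background 3.73%), 10 higher (background 1.37%) and 19 lower (background 2.35%). Homozygous against heterozygous gave 15 (1.41%, background 1.71%), 5 higher (background 0.512%) and 10 lower (background 1.2%). limma-voom gave 0 antisense loci in homozygous against wild type (background 0.0%), heterozygous against wild type (0.00512%), homozygous against heterozygous (0.00512%) and the slope (0.0%). DESeq2 gave 0, 1, 0 and 0 in that order (background 0.0845, 0.0461, 0.0154 and 0.0947%).

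The 1 locus called by DESeq2, in heterozygous against wild-type rats, is MSTRG.89742, opposite AABR07064724.4 on chromosome 6 (91680230 to 91681299, plus strand), with a log2 difference of 1.38 and adjusted p = 0.00955. It was at 3.03, 3.88 and 2.80 CPM in WT rats, 12.1, 5.83 and 6.78 in Het rats and 6.89, 5.54 and 7.64 in Hom rats. All 6 rats with the deletion were above all 3 wild-type rats. It lies opposite the sense gene of highest level in these pairs, named above. Without heterozygous rat 3, the homozygous against heterozygous contrast called 1 antisense locus by edgeR (background 0.00491%), MSTRG.57209 opposite AABR07011385.1, which was at 324 CPM in that rat against 19.2 and 13 in the other heterozygous rats and 130 to 226 in homozygous rats.

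The loci of smallest p lay opposite Agbl5, Mpp5, C2cd4d, Atp8b5p and Atp6v1b1, the same 5 for homozygous against wild type and for the slope. All had lower values with the deletion, and none passed the adjusted threshold. Opposite Agbl5, a tubulin deglutamylase, the locus (MSTRG.87188, chromosome 6, 26840882 to 26844020, plus strand, 1 exon) was at 1.88, 1.53 and 1.38 CPM in WT rats, 1.16, 1.35 and 1.09 in Het rats and 0.704, 0.784 and 0.911 in Hom rats. The 3 genotypes did not overlap (log2 difference of homozygous from wild type -0.97 ± 0.27 SE, adjusted p = 0.544 by edgeR). Agbl5 itself was at 3.76, 3.15 and 4.44, then 3.36, 4.77 and 4.46, then 4.55, 4.73 and 4.93 CPM, with overlapping groups. RefSeq's opposite-strand neighbour of Agbl5 is Ost4, a subunit of oligosaccharyltransferase.

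Opposite Mpp5, a scaffold of cell polarity, the locus (MSTRG.90217, chromosome 6, 102004342 to 102018475, minus strand, 1 exon) was at 6.33, 7.79 and 5.75 CPM in WT rats, 5.37, 3.81 and 3.24 in Het rats and 3.77, 4.17 and 3.39 in Hom rats. Every wild-type rat was above all 6 others, which overlapped each other (log2 difference -0.81 ± 0.23 SE, edgeR adjusted p = 0.544). Opposite C2cd4d (MSTRG.58688) the group means were 1.71 ± 0.569, 1.24 ± 0.3 and 0.743 ± 0.230 CPM from wild type to homozygous (SD, n = 3). Opposite Atp8b5p (MSTRG.80949) they were 0.877 ± 0.305, 0.611 ± 0.0895 and 0.372 ± 0.0634 CPM. Opposite Atp6v1b1, a subunit of the vacuolar proton pump (MSTRG.75828), they were 0.794 ± 0.172, 0.459 ± 0.106 and 0.363 ± 0.0851 CPM. In these 3 every homozygous rat was below every wild-type rat, and the log2 differences were -1.18 ± 0.35, -1.21 ± 0.37 and -1.08 ± 0.35 (SE, edgeR adjusted p = 0.544 each).

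**Figure D4:**
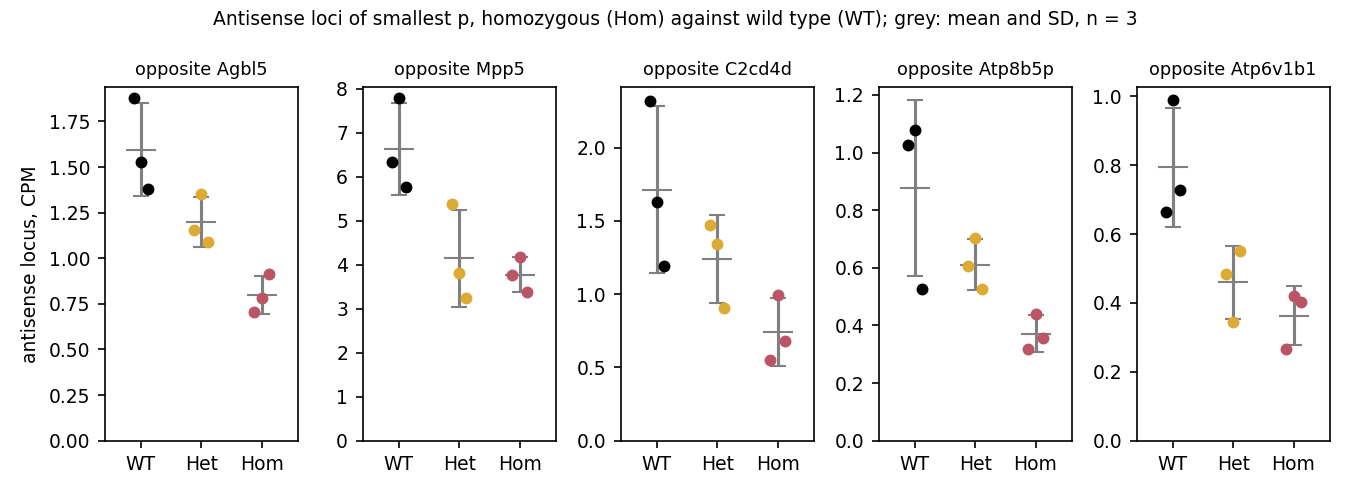
CPM of the antisense locus (vertical, from 0) in each rat by genotype (WT, wild type; Het, heterozygous; Hom, homozygous) for the 5 loci of smallest p, with the group mean and SD in grey (n = 3). The homozygous rats sit below the wild-type rats in all 5 panels, and at Agbl5 the 3 genotypes do not overlap.

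By order of the group means, 378 of the 1061 loci had means in falling order from WT through Het to Hom (35.6%, background 29.1%) and 151 in rising order (14.2%, background 24.5%). In 332 (31.3%, background 25.9%) the heterozygous mean was lowest and in 200 (18.9%, background 20.5%) it was highest. Every homozygous rat was below every wild-type rat in 119 loci (11.2%, background 6.11%) and above in 41 (3.86%, background 7.28%). All 3 genotypes were in falling order without overlap in 5 loci (0.471%, background 0.113%), opposite Agbl5, Tpd52l2, Rsbn1l, Tdg and AABR07030335.1, and in rising order in 0 (background 0.174%). The falling count was 325 without wild-type rat 2 and 241 without heterozygous rat 1, for which no background is given here.

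The median log2 difference of homozygous from wild-type rats was -0.17 over the antisense loci, -0.07 over all loci tested and 0.17 over the sense genes of the 747 pairs, and 342 loci (32.2%) were above 0 against 44.3% of all. Scaling moved these values together: over all tested loci the median was -0.07 by TMM, -0.37 by column totals and -0.84 by TPM. Relative to that, the antisense median lay at -0.10 on each of the 3 scales. The other unannotated loci had lower medians still, -0.34 for 1953 intronic and -0.35 for 8345 intergenic loci, while loci with an annotated symbol had 0.14. Wild-type rat 2 was the highest of the 9 rats in 318 antisense loci (30.0%), close to the 29.0% of all loci tested. It was the highest in 53.3% of the intronic, 54.3% of the intergenic and 8.32% of the annotated loci. Without that rat the antisense median was -0.11. WT and Hom rats also did not overlap in the mitochondrial share given above or in the microglia markers (8 of 9 measured), with a summed level of 83.7 to 110 CPM in WT, 103 to 128 in Het and 119 to 133 in Hom rats. The part of either in the order of the antisense means was not tested.

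Antisense and sense of a pair moved to the same side between homozygous and wild-type rats in 334 of 747 pairs (44.7%). No background is given for this share. The antisense loci had a median log2 difference of -0.17 and the sense genes 0.17, so the share alone shows no opposition within pairs. The log2 ratio of antisense to sense, with 0.1 TPM added to each, had a slope per deleted allele past an adjusted p of 0.05 (limma) in 0 of the 747 pairs, with 46 at an unadjusted p under 0.05 (background 0.0714% adjusted and 7.86% unadjusted over 1400 pairs). With 1 TPM added in place of 0.1, 11 of the 747 passed (1.47%, background 2.0%), and 27.4% of the 1400 pairs had an unadjusted p under 0.05. The median slope over the 747 pairs was 0.119 with 1 TPM, 0.00952 with 0.1 and -0.141 with 0.01 TPM added. It thus depends on the amount added, as the median antisense level was 0.14 TPM. With 0.1 TPM added, the smallest p was opposite Junb, an immediate early transcription factor gene. Its antisense locus (MSTRG.49254, chromosome 19, 26094123 to 26101653, plus strand) was at 2.99, 2.76 and 2.76 CPM in WT rats, 2.53, 2.06 and 2.31 in Het rats and 2.87, 3.11 and 2.19 in Hom rats. Junb was at 5.52, 1.59 and 2.48, then 2.81, 4.99 and 11.5, then 11.1, 13 and 11.3 CPM. The sense gene was thus higher in every homozygous rat than in any wild-type rat while the antisense locus overlapped between groups, and the log2 ratio had a slope of -0.88 ± 0.22 per allele (SE, limma, adjusted p = 0.26). The next 4 by p were Gltpd2, Ddhd1 and Itpr3, with slopes of 0.58, 0.40 and 0.35, and Slc16a11 with -0.36 (adjusted p from 0.457 to 0.53).

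By sense gene list, none of the loci opposite ion channels, solute carriers, zinc finger and homeobox factors or the other lists passed in the homozygous against wild-type contrast or the slope. The 18 opposite ion channels had a median log2 difference of -0.05, with 9 above 0, and the 16 pairs among them a median r of 0.20. Those opposite solute carriers had a median of -0.04 (11 of 26 above 0) and r of 0.12. Those opposite zinc finger and homeobox factors had a median of -0.15 (5 of 15 above 0) and r of 0.05. Over all antisense loci the median was -0.17, with 32.2% above 0. The highest ion channel loci after Kcnq1, named after their values were seen, were opposite Kcne3, a potassium channel subunit (12.9 CPM), and Kcna6, a voltage-gated potassium channel (2.61 CPM, r = 0.79).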

How the data were processed

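Whole-brain RNA of 9 rats, 3 per genotype, was sequenced as 2 x 100 bases, 4 libraries to a lane, per the labels' protocols. cutadapt, HISAT2, StringTie and RSEM with build rn6 are named in the submitters' processing notes, without roles or versions. The authors deposited expected counts and TPM per locus, and the assembled annotation, whose class codes and coordinates define the loci. The sources used here give no strand setting for the counting.

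Members, gene lists and tests were chosen with earlier results of these data known. Loci in which all transcripts have class code x were kept at a mean CPM of at least 0.5. Expected counts were rounded and fitted with edgeR 4.0.16 (TMM, robust quasi-likelihood, default expression filter, 39057 loci, group means), with p-values adjusted over all of them. limma-voom and DESeq2 1.42.0 were alternatives. The ratio slope used limma 3.58.1 on log2(TPM + 0.1) differences, and correlations used log2(CPM + 0.5). On simulated counts over 37193 loci, the homozygous against wild-type test recovered 18% of 2-fold, 62% of 4-fold and 86% of 8-fold changes. Named loci are, by rule, those with a sense gene symbol: 8 of highest TPM, 6 of highest ratio, 5 of smallest p in homozygous against wild type, the slope and the ratio slope, 5 of highest and 5 of lowest r with a sense gene of at least 1 TPM, 3 with most exons, and all opposite listed natural antisense genes. One locus that this rule names is not reported here.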

Additional observations from a re-analysis of the deposited data

How the results depend on the processing

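Depth limits these results, since loci at the level minimum rest on 13.7 to 23.5 counts per library, TPM is deposited in steps of 0.01, and at 3 rats per genotype most 2-fold changes would be missed. The number of antisense loci past the adjusted threshold stayed at 0 in homozygous against wild type and in the slope under all 16 alternatives run for each, and ranged from 0 to 1 when single libraries were left out of homozygous against heterozygous. DESeq2 gave 1 in heterozygous against wild type. The ratio slope called 11 of the 747 pairs with 1 TPM added in place of 0.1, where 28 of all 1400 passed, and 0 under the other 14 alternatives. Its median over the 747 pairs changed sign with the amount added, from -0.141 at 0.01 TPM to 0.119 at 1 TPM. The median level ratio was 10.1% by CPM, 9.53% at a mean CPM of at least 1 and 12.1% in spliced loci. The median r was 0.383 by column totals, 0.651 by TPM, 0.0015 in spliced loci, 0.0015 without exonic overlap, -0.06 without the 2 farthest libraries, and -0.0614 to 0.0064 without single libraries. The falling order held 679 loci by column totals (64.0%, background 55.1%) and 942 by TPM (88.8%, background 82.4%). The rising order held 41 (3.86%, background 6.52%) and 7 (0.660%, background 0.909%) on the same scales. Without single libraries the falling order held 241 to 410, for which no background is given here. The column-total and TPM results differ from TMM by construction, since those scales shift all loci. The replicate number as a block left 0 antisense loci past the threshold in all 4 tests and 0 ratio slopes, with a median log2 difference of -0.16. Deviations of log2 CPM from the genotype mean of each locus were correlated between rats of different genotype. For same-numbered rats r was between -0.18 and 0.40, and for rats of different number between -0.51 and 0.39. These ranges overlap and do not settle whether the numbers pair the rats. The median r without exonic overlap and without the 2 farthest libraries, and the ratios by effective length, were chosen after seeing the data.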

Other observations

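Antisense loci in falling order without overlap included 4 beyond Agbl5. Opposite Tpd52l2, a member of the tumor protein D52 family, the locus (MSTRG.71865) was at 1.87, 1.90 and 1.68 CPM in WT rats, 1.34, 1.44 and 1.52 in Het rats and 0.796, 0.985 and 1.31 in Hom rats. Opposite Rsbn1l (MSTRG.72405) it was at 3.04, 3.12 and 3.14, then 2.66, 2.99 and 2.31, then 2.24, 2.16 and 2.25 CPM. Opposite Tdg, the thymine DNA glycosylase (MSTRG.93585), it was at 1.14, 1.19 and 1.34, then 1.09, 1.12 and 1.08, then 0.787, 1.04 and 0.781 CPM. Opposite AABR07030335.1 (MSTRG.17232) it was at 4.41, 4.19 and 4.54, then 4.13, 3.66 and 3.72, then 3.19, 3.08 and 3.66 CPM, where the Het and Hom groups meet at 3.66 when rounded. None passed the adjusted threshold by edgeR.

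Some antisense loci inside highly expressed neuronal genes are short. Opposite Map2, a locus of 412 bases (MSTRG.107254) was at 4.27, 1.97 and 3.21 CPM in WT rats, 4.72, 2.44 and 3.36 in Het rats and 7.12, 0.421 and 0.569 in Hom rats, so the homozygous rats alone covered the whole range. Opposite Peg3, a locus of 437 bases (MSTRG.3025) was at 3.63, 5.15 and 4.66, then 5.01, 5.19 and 3.23, then 4.95, 3.13 and 4.68 CPM. RefSeq names the long non-coding RNA Apeg3 as the opposite-strand neighbour of Peg3, matched by name only.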
